A study of Mus musculus with 15 samples.

Results

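The genes described here are 42 mouse genes that encode the kinases of the DNA damage checkpoint and core enzymes of DNA repair. They were listed by name and known function rather than by their values, although earlier results of these data were known at the time. They fall into 8 role classes: 4 checkpoint kinases, 7 genes of break sensing and chromatin, 11 of homologous recombination, 5 of end joining, 3 of mismatch repair with Exo1, 3 of nucleotide excision, 4 of base excision and single-strand breaks, and 5 of the Fanconi anemia pathway and its helicases. All 42 were found among the 23329 genes of the deposited tables (Rad51b under its older symbol Rad51l1), and all 42 passed the filter that left 14880 genes for testing, so none was lost.

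The tumors came from mice in which a Myc family oncogene is driven in 1 cell lineage, with or without a germline deletion of caspase-2 (Casp2), a protease of the cell death machinery that is studied as a tumor suppressor. The 4 EμMyc and 3 EμMyc/Casp2-/- tumors were lymphomas of the cervical lymph nodes in C57BL/6 mice, whose c-Myc transgene is expressed in B cells from the enhancer of the immunoglobulin heavy chain. The 4 Th-MycN and 4 Th-MycN/Casp2-/- tumors were paraspinal thoracic neuroblastomas in Sv129/C57BL6 mice, whose MYCN transgene is expressed in sympathetic neuroblasts from the promoter of tyrosine hydroxylase. Each of the 15 libraries was 1 tumor from a different mouse, and 1 further EμMyc/Casp2-/- tumor of the study is not analysed here. Lymphomas arose at 13 to 19 weeks with Casp2 and at 8 to 12 weeks without it, and neuroblastomas at 10 to 21 and 15 to 24 weeks. Between lymphoma and neuroblastoma the tissue, the transgene and the strain all differ, and their parts in a difference cannot be told apart. Sex was unbalanced as well: a single lymphoma came from a female mouse, but most neuroblastomas did.

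DNA breaks are sensed by the Mre11-Rad50-Nbn complex, which activates Atm, and by single-stranded DNA, which activates Atr. These kinases act through Chek2 and Chek1 to halt the cell cycle. Breaks are joined directly by the Ku heterodimer (Xrcc5 and Xrcc6), Prkdc and Lig4, a route that developing B cells also need to assemble immunoglobulin genes, or are copied from the sister chromatid by the proteins of homologous recombination in S and G2 phase. Mismatch, base excision and nucleotide excision repair remove replication errors, damaged bases and bulky lesions, and Myc-driven proliferation is known for raising replication stress.

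Libraries held 4940464 to 17638029 reads on the strand counted, and levels are given as CPM, the count of a gene normalized to the library's total and scaled by the TMM method. On this scale 3 reads corresponded to 0.170 to 0.607 CPM, a limit that covers counting error only. The summed CPM of 5 B cell markers was 1773.73 to 4265.83 in the 7 lymphomas and 1.25 to 10.3 in the 8 neuroblastomas, and that of 6 sympathetic neuroblast markers was 0.866 to 10.3 and 1648.97 to 2804.30, so the labelled tumor types matched their markers. In bulk tumors, fewer cells of a type and less RNA per cell cannot be told apart. Reads over the whole Casp2 gene, from which the deleted part was not separated, were 125 to 203 CPM in EμMyc, 51.9 to 76.1 in EμMyc/Casp2-/-, 76.0 to 125 in Th-MycN and 39.6 to 80.2 in Th-MycN/Casp2-/- tumors. One lymphoma, EuMycC2ko215, stood apart. It had the fewest reads, 11.2% unmapped reads against at most 3.89% in the others, 362 CPM of the T cell gene Cd8a against at most 9.85, and it was the only lymphoma from a female. It had the lowest level of all 7 lymphomas in 23 of the 42 genes (28.6% of all tested genes) and the highest in 4 (25.5%), and calls between tumor types that were lost or gained without it are given below.

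Per-tumor values below follow the order EuMyc614, EuMyc743b, EuMyc829 and EuMyc835 for EμMyc, EuMycC2ko215, EuMycC2ko239 and EuMycC2ko245 for EμMyc/Casp2-/-, MYCN175, MYCN235, MYCN332 and MYCN391 for Th-MycN, and MYCNC2ko118, MYCNC2ko144, MYCNC2ko176 and MYCNC2ko180 for Th-MycN/Casp2-/-. Fold changes are on the log2 scale with their standard error (SE), from edgeR's quasi-likelihood test in 1 model of all 15 tumors, and adjusted p is the Benjamini-Hochberg value over all 14880 genes. A gene is called, or said to be higher or lower, at an adjusted p below 0.05.

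To compare genes with each other, levels were divided by exon length, the merged length of all annotated exons of a gene. The histone variant gene H2afx, whose phosphorylated product marks breaks, had the highest level of the 42 genes in each of the 4 groups. Its mean per kilobase was 196 ± 49.8 CPM in EμMyc (SD, n = 4), 202 ± 107 in EμMyc/Casp2-/- (n = 3), 127 ± 23.03 in Th-MycN (n = 4) and 135 ± 46.7 in Th-MycN/Casp2-/- tumors (n = 4). Parp1, which binds strand breaks and builds poly(ADP-ribose), was second in all 4 groups at 111 ± 25.5, 103 ± 29.99, 66.3 ± 16.03 and 60.3 ± 4.47 CPM per kilobase. Below them the order differed between tumor types. In EμMyc lymphomas Xrcc6 at 73.95 ± 55.9, Msh6 at 54.01 ± 10.2 and Xrcc1 at 46.1 ± 9.05 followed, and these neighbours overlapped within their SD. In Th-MycN neuroblastomas Mdc1 at 25.6 ± 3.91, Msh6 at 23.5 ± 3.804, Xrcc5 at 21.1 ± 7.14 and Trp53bp1 at 20.6 ± 2.09 followed, again within each other's SD. At the other end, Rad51c was the lowest of the 42 in both lymphoma groups at 2.103 ± 0.27 and 1.56 ± 0.12 CPM per kilobase. Prkdc, the kinase of end joining, was the lowest in both neuroblastoma groups at 1.72 ± 0.14 and 1.403 ± 0.22. The next lowest genes overlapped these within their SD. They were Xrcc4 in the lymphoma groups, at 2.18 ± 0.55 and 1.96 ± 0.29, and Rad51b in the neuroblastoma groups, at 1.76 ± 0.40 and 1.56 ± 0.45.

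**Figure D1:**
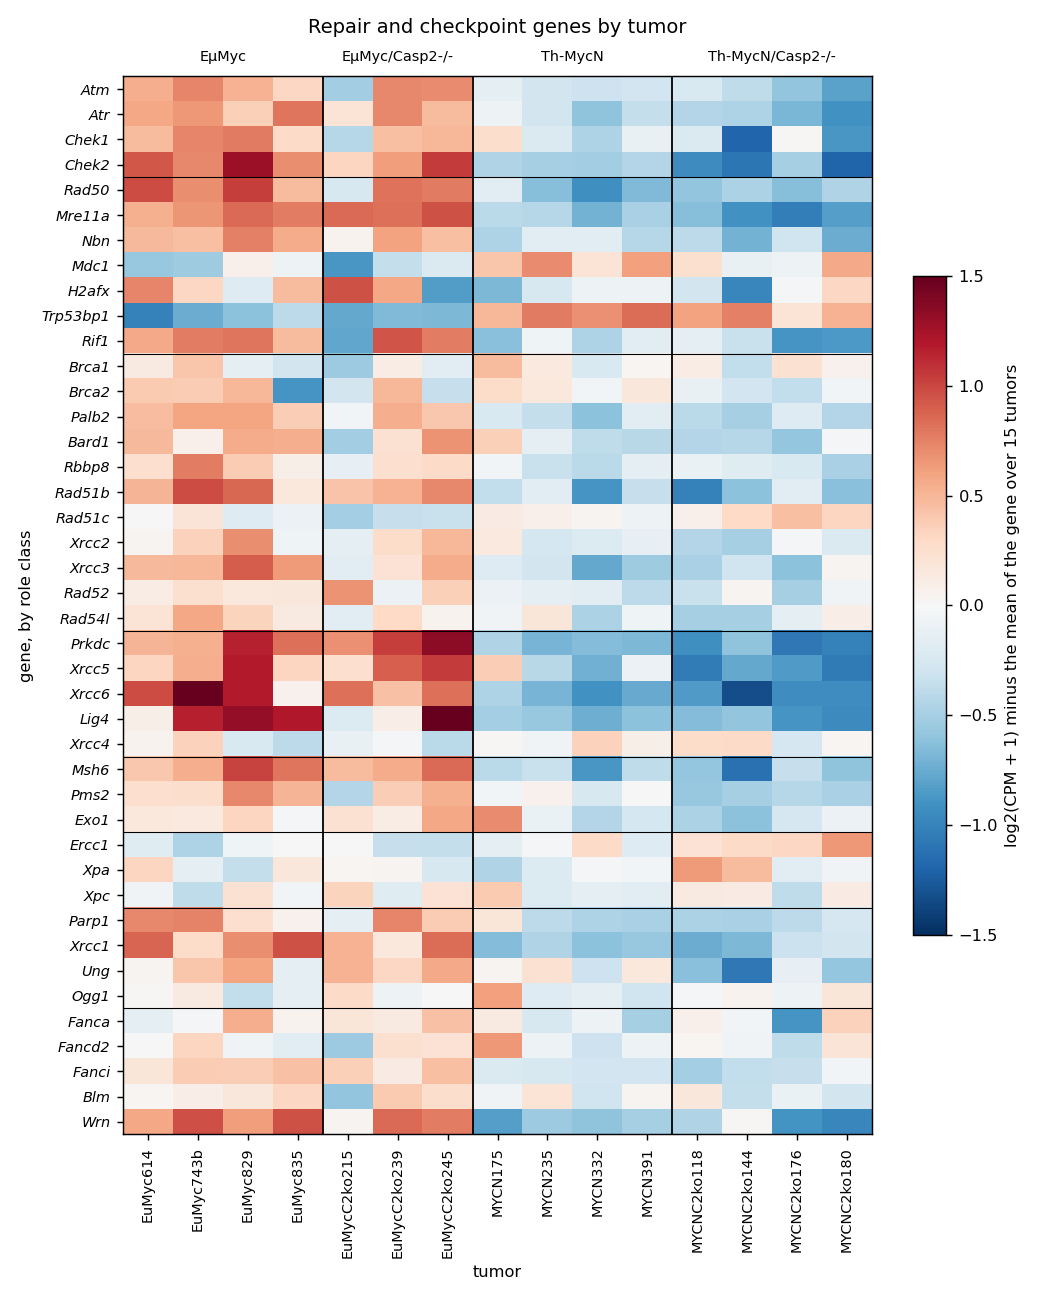
Each row is 1 of the 42 genes in its role class and each column 1 of the 15 tumors, and the color gives log2(CPM + 1) minus the mean of that gene over the 15 tumors. Most rows are higher in the 7 lymphomas on the left, Trp53bp1 and Mdc1 are the other way round, and the column of EuMycC2ko215 is paler than its neighbours in many rows.

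The comparison of lymphoma with neuroblastoma asked how the repair genes differed between these Myc-driven tumor types, and most that differed were higher in lymphoma. Between EμMyc and Th-MycN tumors 22 of the 42 genes were higher in lymphoma, where 27.4% of all tested genes were, and 2 were lower, where 32.9% were. Over 2-fold, 11 were higher (18.3% of all genes) and 1 was lower (27.8%). Among Casp2-/- tumors, which came from different mice, 24 were higher (26.8% of all genes) and 4 lower (31.4%), of which 14 (19.7%) and 1 (26.6%) were over 2-fold. The median log2 fold change of the 42 genes was 0.62 in the first comparison, beside -0.04 over all tested genes, and 0.66 in the second, beside -0.05. With sex as a term in the model these medians were 0.58, beside -0.03, and 0.60, beside -0.08. Of the 42 genes, 21 were higher in both comparisons and 2, Trp53bp1 and Mdc1, were lower in both. The share of all tested genes called in both was not computed. Rbbp8 was called in the first alone and Rad51c, Rad52, Exo1, Ercc1 and Ung in the second alone, while 13 were called in neither.

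Groups that did not overlap at all gave a like picture. All 4 EμMyc tumors lay above all 4 Th-MycN tumors for 21 genes (26.4% of all tested genes) and below them for 2 (32.9%). All 3 EμMyc/Casp2-/- tumors lay above the Th-MycN/Casp2-/- tumors for 18 genes (23.6%) and below them for 4 (31.2%). Over both genotypes, every one of the 7 lymphomas exceeded every one of the 8 neuroblastomas in 13 of the 42 genes (16.6% of all genes): Atr, Chek2, Mre11a, Nbn, Palb2, Rad51b, Prkdc, Xrcc6, Lig4, Msh6, Xrcc1, Fanci and Wrn. Only Trp53bp1 among the 42 was below in all 7 (25.1% of all genes). Several repair genes are known to be expressed in S phase like the genes of DNA replication. Of 15 cell cycle genes, 7 (46.7%) were higher in lymphoma in each comparison, beside 27.4% and 26.8% of all tested genes. None was lower, beside 32.9% and 31.4%, and the medians were 0.42 and 0.45. The summed level of these cycle genes was 4719.73 to 7217.77 CPM in lymphomas and 3441.68 to 5305.26 CPM in neuroblastomas, and its part in the differences of the repair genes was not tested.

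**Figure D2:**
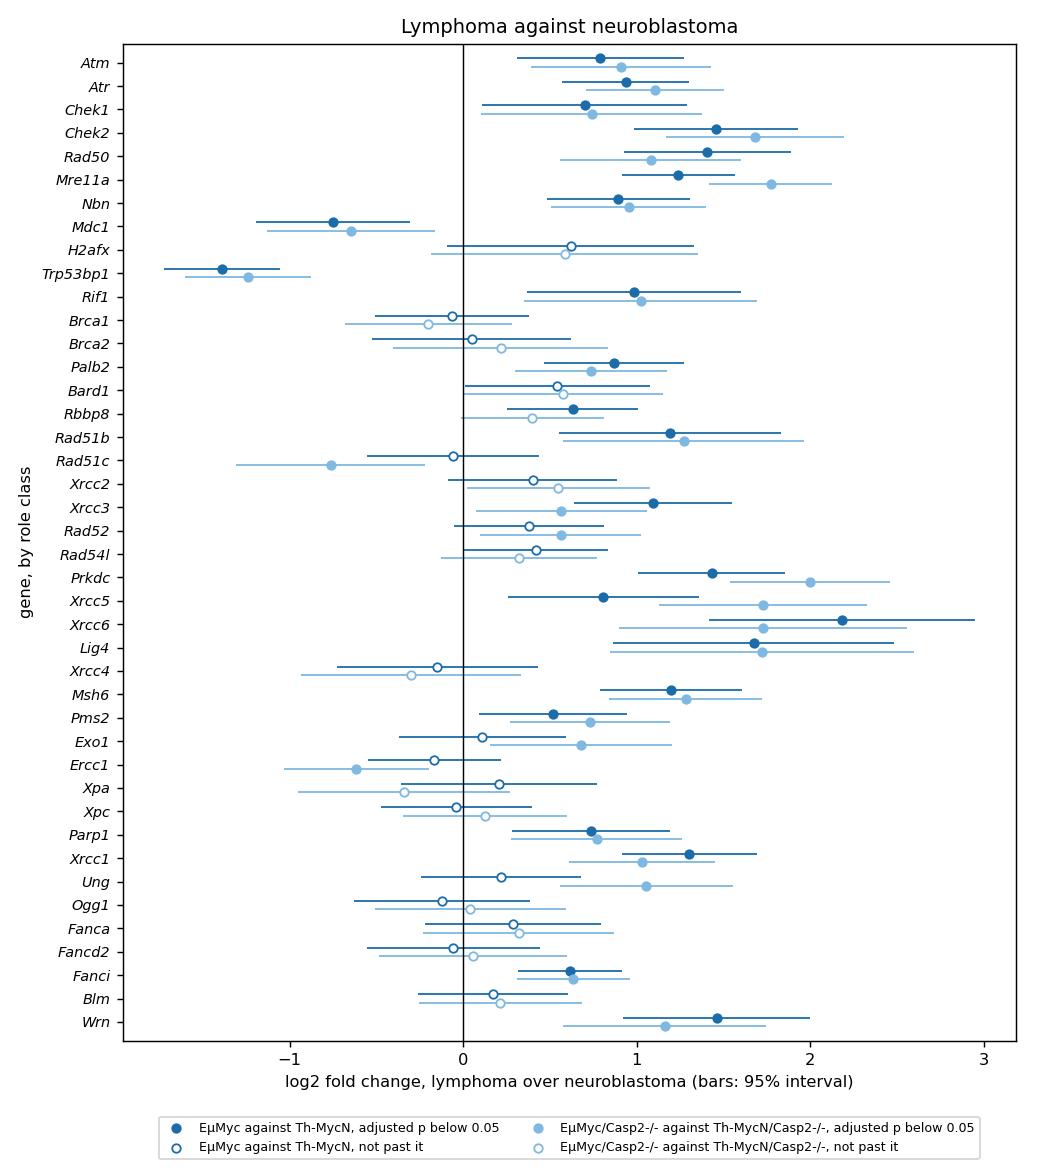
Each row is 1 of the 42 genes, the horizontal axis is the log2 fold change of lymphoma over neuroblastoma with its 95% interval, dark blue for Casp2 wild type and light blue for Casp2-/- tumors, and filled points passed an adjusted p of 0.05. Filled points lie to the right of 0 for 22 and 24 genes and to the left for 2 and 4, and the points furthest to the right are Xrcc6 at 2.18 in Casp2 wild type and Prkdc at 1.997 in Casp2-/- tumors.

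All 4 checkpoint kinases were higher in lymphoma in both comparisons, beside 27.4% and 26.8% of all tested genes in each. Their median log2 fold changes were 0.86 and 1.01. Chek2, the effector kinase of Atm (chr5:110839979-110874145 in GRCm38), had 47.9, 41.1, 61.3 and 40.5 CPM in EμMyc, 31.1, 38.5 and 51.99 in EμMyc/Casp2-/-, 17.7, 17.1, 16.9 and 17.8 in Th-MycN and 12.3, 11.1, 17.1 and 10.2 in Th-MycN/Casp2-/- tumors. Every lymphoma was above every neuroblastoma, and the lowest lymphoma was EuMycC2ko215. The log2 fold change was 1.46 (SE 0.22, adjusted p = 5.00e-05) in Casp2 wild type and 1.68 (SE 0.24, adjusted p = 2.68e-05) in Casp2-/- tumors. Atr, the kinase of replication stress, had 105, 109.8, 89.8 and 122 CPM in EμMyc, 80.3, 115 and 96.8 in EμMyc/Casp2-/-, 66.2, 57.4, 45.4 and 54.1 in Th-MycN and 51.1, 50.3, 42.9 and 36.6 in Th-MycN/Casp2-/- tumors. These groups did not overlap between tumor types either, and Atr differed by log2 fold changes of 0.94 (SE 0.17, adjusted p = 0.000258) and 1.11 (SE 0.19, adjusted p = 0.000117). Atm, which responds to double-strand breaks, had 141, 162, 139 and 120.3 CPM in EμMyc, 67.4, 161 and 159 in EμMyc/Casp2-/-, 88.1, 80.03, 77.9 and 79.4 in Th-MycN and 82.3, 74.1, 64.2 and 55.2 in Th-MycN/Casp2-/- tumors. EuMycC2ko215 was the only lymphoma among the neuroblastoma values, and the log2 fold changes were 0.79 (SE 0.23, adjusted p = 0.00708) and 0.91 (SE 0.24, adjusted p = 0.00467). Chek1, the effector of Atr, had 77.9, 92.99, 95.9 and 67.8 CPM in EμMyc, 41.02, 76.3 and 79.2 in EμMyc/Casp2-/-, 67.2, 47.8, 40.00 and 51.2 in Th-MycN and 47.6, 23.9, 56.2 and 29.8 in Th-MycN/Casp2-/- tumors. MYCN175 nearly reached the lowest EμMyc tumor, and the differences of 0.70 (SE 0.28, adjusted p = 0.0402) and 0.74 (SE 0.30, adjusted p = 0.0445) were the smallest of the 4 kinases. The Chek1 call between EμMyc and Th-MycN held in 8 of 15 alternative settings. It was lost without EuMyc743b, EuMyc829, MYCN235, MYCN332 or MYCN391 (0.59 to 0.69, adjusted p = 0.0742 to 0.112), and the call in Casp2-/- tumors without EuMycC2ko239, EuMycC2ko245, MYCNC2ko144 or MYCNC2ko180 (0.55 to 0.67, adjusted p = 0.0984 to 0.170).

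Of the 7 genes of break sensing and chromatin, 4 (57.1%) were higher in lymphoma in each comparison, beside 27.4% and 26.8% of all tested genes. In each comparison 2 (28.6%) were lower, beside 32.9% and 31.4%, and the medians were 0.89 and 0.95. The 3 subunits of the break sensor were all higher in both. Rad50, its ATPase (chr11:53649519-53707319), had 149, 122, 155 and 104 CPM in EμMyc, 63.3, 133 and 129 in EμMyc/Casp2-/-, 66.5, 47.6, 39.02 and 46.9 in Th-MycN and 49.6, 53.7, 47.8 and 54.6 in Th-MycN/Casp2-/- tumors. Every lymphoma other than EuMycC2ko215 was above every neuroblastoma, and Rad50 differed by log2 fold changes of 1.41 (SE 0.23, adjusted p = 8.39e-05) and 1.08 (SE 0.24, adjusted p = 0.00141). Mre11a, the nuclease, ranged from 54.7 to 73.4 CPM in lymphomas and 17.7 to 28.04 in neuroblastomas, with log2 fold changes of 1.24 (SE 0.15, adjusted p = 6.26e-06) and 1.77 (SE 0.17, adjusted p = 3.52e-07). Nbn, which recruits Atm to the complex, ranged from 26.96 to 44.6 and 15.1 to 23.2 CPM, with 0.89 (SE 0.19, adjusted p = 0.001) and 0.95 (SE 0.21, adjusted p = 0.00111). For both genes the lowest lymphoma stayed above the highest neuroblastoma.

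The chromatin factors that act after the sensor went in different directions. Trp53bp1, which encodes 53BP1, a factor that protects broken ends and favors end joining (chr2:121193281-121271407), had 87.7, 106, 116 and 135 CPM in EμMyc, 105, 113 and 111 in EμMyc/Casp2-/-, 253, 306, 288 and 321 in Th-MycN and 271, 302, 206 and 256 in Th-MycN/Casp2-/- tumors. Every neuroblastoma was higher than every lymphoma, with group means of 111 ± 19.9 and 109.7 ± 4.39 CPM (SD, n = 4 and 3) against 292 ± 29.6 and 259 ± 40.03 (n = 4 each). The log2 fold changes were -1.39 (SE 0.16, adjusted p = 2.36e-06) and -1.24 (SE 0.17, adjusted p = 2.47e-05), and Trp53bp1 was the only one of the 42 genes lower by over 2-fold. It shares 2130 exonic bases with Tubgcp4 on the other strand, and with reads of either strand, which leave out shared positions, the first value was -1.502. Mdc1, the scaffold that binds phosphorylated H2afx, ranged from 90.6 to 142 CPM in EμMyc, 72.9 to 115 in EμMyc/Casp2-/-, 155 to 220.0 in Th-MycN and 125 to 200.3 in Th-MycN/Casp2-/- tumors. Its log2 fold changes were -0.75 (SE 0.21, adjusted p = 0.00617) and -0.64 (SE 0.23, adjusted p = 0.0253), and the second was -0.41 (adjusted p = 0.146) without EuMycC2ko215, -0.63 (adjusted p = 0.0570) without EuMycC2ko239 and -0.44 (adjusted p = 0.112) without MYCNC2ko180. Rif1, a partner of 53BP1 at broken ends, was in contrast higher in lymphoma at 137 to 173 and 57.2 to 189.8 CPM against 63.6 to 94.2 and 52.8 to 88.7. Its log2 fold changes were 0.98 (adjusted p = 0.00893) and 1.02 (adjusted p = 0.0109), and the 57.2 CPM of EuMycC2ko215 was the one lymphoma value within the neuroblastoma range. The second Rif1 call was lost without EuMycC2ko239 (0.79, adjusted p = 0.0557) or EuMycC2ko245 (0.85, adjusted p = 0.0537). H2afx, the highest of the 42 per kilobase of exon but not in CPM, spread from 117 to 407 CPM in lymphomas and 106 to 260.4 in neuroblastomas. It was called in neither comparison, with 0.62 (adjusted p = 0.123) and 0.58 (adjusted p = 0.176). The second value was called without EuMycC2ko245 (0.94, adjusted p = 0.0182), was 0.27 (adjusted p = 0.556) without EuMycC2ko215 and was 0.38 (adjusted p = 0.392) without MYCNC2ko144.

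Of the 11 genes of homologous recombination, 4 (36.4%) were higher in lymphoma in each comparison, beside 27.4% and 26.8% of all tested genes. In the first comparison 0 were lower, beside 32.9%, and in the Casp2-/- tumors 1 (9.09%) was, beside 31.4%. The medians were 0.42 and 0.55. Brca1, which starts the pathway at resected ends, had 93.95, 114, 77.1 and 70.5 CPM in EμMyc, 58.02, 91.8 and 76.2 in EμMyc/Casp2-/-, 119, 94.2, 72.3 and 86.7 in Th-MycN and 92.4, 65.8, 99.7 and 89.4 in Th-MycN/Casp2-/- tumors. The groups overlapped fully, and the log2 difference between EμMyc and Th-MycN was -0.06 with a 95% interval from -0.51 to 0.38 (adjusted p = 0.804). Brca2, which acts after Brca1 in the same pathway, had 61.7, 61.3, 66.8 and 24.8 CPM in EμMyc, 38.7, 66.4 and 36.6 in EμMyc/Casp2-/-, 56.7, 52.6, 45.5 and 52.7 in Th-MycN and 43.1, 38.2, 36.1 and 45.7 in Th-MycN/Casp2-/- tumors. EuMyc835, at 24.8 CPM, was below every other tumor, and the log2 difference was 0.05 with an interval from -0.52 to 0.62 (adjusted p = 0.890). These intervals exclude a 2-fold difference in either direction for both genes and do not exclude smaller ones. In Casp2-/- tumors the log2 difference was -0.20 (adjusted p = 0.465) for Brca1 and, for Brca2, 0.22 (adjusted p = 0.548), values that were 0.0114 and 0.40 without EuMycC2ko215 and called in neither case.

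Rad51b, Rad51c and Xrcc3, which belong to 1 protein family, did not move together. Rad51b, a recombination factor (chr12:79297282-79814690), had 13.6, 19.1, 17.5 and 10.4 CPM in EμMyc, 12.7, 13.7 and 15.8 in EμMyc/Casp2-/-, 6.902, 8.06, 4.502 and 7.04 in Th-MycN and 4.03, 5.65, 8.100 and 5.61 in Th-MycN/Casp2-/- tumors, at low levels that were nevertheless higher in each lymphoma than in any neuroblastoma. Its log2 fold changes were 1.19 (SE 0.30, adjusted p = 0.00318) and 1.27 (SE 0.33, adjusted p = 0.00345). Xrcc3 was also higher, by log2 fold changes of 1.09 (adjusted p = 0.000433) and 0.57 (adjusted p = 0.0453), and Palb2, the bridge between Brca1 and Brca2, by 0.87 (adjusted p = 0.00109) and 0.74 (adjusted p = 0.00609). The second Xrcc3 call was lost without EuMycC2ko245 (0.36, adjusted p = 0.236) or any of MYCNC2ko118, MYCNC2ko144 and MYCNC2ko176 (0.47 to 0.57). Rad51c had 9.36, 10.8, 8.03 and 8.71 CPM in EμMyc, 6.25, 7.09 and 7.17 in EμMyc/Casp2-/-, 10.2, 9.88, 9.58 and 8.77 in Th-MycN and 9.87, 11.7, 13.1 and 11.9 in Th-MycN/Casp2-/- tumors. The Casp2 wild type tumors overlapped and gave -0.06 (SE 0.23, adjusted p = 0.841), whereas the 3 EμMyc/Casp2-/- tumors lay below all Th-MycN/Casp2-/- tumors and gave -0.76 (SE 0.26, adjusted p = 0.0195). The interaction, which tests whether the tumor type difference depends on the genotype, was -0.70 (SE 0.35, adjusted p = 0.678), and the lower level was -0.64 (adjusted p = 0.0589) without EuMycC2ko215 and -0.73 (adjusted p = 0.0564) without EuMycC2ko239.

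Rad52, an annealing factor, had 28.6, 31.4, 29.4 and 29.7 CPM in EμMyc, 42.8, 24.8 and 33.9 in EμMyc/Casp2-/-, 24.7, 23.9, 23.2 and 19.9 in Th-MycN and 20.7, 27.1, 18.4 and 25.3 in Th-MycN/Casp2-/- tumors. The 42.8 CPM of EuMycC2ko215 was the highest of all tumors, and although EμMyc tumors lay above all Th-MycN tumors, Rad52 was called in the Casp2-/- tumors at 0.56 (SE 0.22, adjusted p = 0.0371) but not in Casp2 wild type tumors at 0.38 (SE 0.20, adjusted p = 0.118). Without EuMycC2ko215 the value was 0.43 (adjusted p = 0.0971), without EuMycC2ko245, MYCNC2ko118 or MYCNC2ko176 it was 0.46 to 0.54 (adjusted p = 0.0787 to 0.0950), and the interaction was 0.18 (adjusted p = 0.948). Rbbp8, which encodes the resection factor CtIP, had 66.2, 95.4, 72.8 and 59.04 CPM in EμMyc, 50.8, 66.4 and 68.04 in EμMyc/Casp2-/-, 53.9, 43.9, 41.6 and 50.4 in Th-MycN and 51.9, 48.96, 47.2 and 39.4 in Th-MycN/Casp2-/- tumors. It was higher in EμMyc at 0.63 (SE 0.18, adjusted p = 0.00672) and not called in the Casp2-/- tumors at 0.40 (SE 0.19, adjusted p = 0.0882), where EuMycC2ko215 lay inside the neuroblastoma range. Without that tumor Rbbp8 was called there too (0.58, adjusted p = 0.0246), and the interaction was -0.23 (adjusted p = 0.909). Bard1, the partner of Brca1, was called in neither comparison, with log2 fold changes of 0.54 (adjusted p = 0.0726) and 0.57 (adjusted p = 0.0791). It was called without EuMyc743b (0.65, adjusted p = 0.0489) or MYCN175 (0.74, adjusted p = 0.0219) in the first, and without EuMycC2ko215 (0.90, adjusted p = 0.00644) or MYCNC2ko180 (0.75, adjusted p = 0.0386) in the second, which was 0.26 (adjusted p = 0.460) without EuMycC2ko245. Xrcc2 was at 0.40 (adjusted p = 0.143) and 0.55 (adjusted p = 0.0691), the second 0.77 (adjusted p = 0.0177) without EuMycC2ko215 and called by DESeq2 (adjusted p = 0.0497). Rad54l was at 0.42 (adjusted p = 0.0757) and 0.32 (adjusted p = 0.203), the first 0.52 (adjusted p = 0.0496) without MYCN235. With reads of either strand the first comparison called Bard1 (0.60, adjusted p = 0.0458) and Rad54l (0.45, adjusted p = 0.0494).

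End joining had the largest median differences of the 8 classes, 1.43 and 1.72. In each comparison 4 of its 5 genes (80%) were higher in lymphoma, beside 27.4% and 26.8% of all tested genes. Xrcc6, which encodes the Ku70 subunit (chr15:81987835-82040085), had 234, 694, 271 and 124 CPM in EμMyc, 211, 161 and 212 in EμMyc/Casp2-/-, 86.2, 72.8, 63.02 and 69.8 in Th-MycN and 65.5, 46.5, 61.5 and 61.98 in Th-MycN/Casp2-/- tumors. All lymphomas were above all neuroblastomas, and EuMyc743b stood far above the other lymphomas. The log2 fold changes were 2.18 (SE 0.36, adjusted p = 0.000133) and 1.72 (SE 0.39, adjusted p = 0.00144), the first of which was 1.53 (adjusted p = 6.19e-05) without EuMyc743b. In that tumor Xrcc6 was at 3.28 times the median of the other 6 lymphomas, and its neighbour on chromosome 15 Pppde2 at 3.59 times. Tnfrsf13c was at 2.95 times, while Ccdc134 and Srebf2 were at 1.05 times. Xrcc6 and Pppde2 share 344 exonic bases on opposite strands in GENCODE M21. Counting reads of either strand, which leaves out shared positions, nevertheless kept 99.99% of the Xrcc6 reads. The part of the chromosomal region in the Xrcc6 level of EuMyc743b was not tested.

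Prkdc, the DNA-dependent protein kinase catalytic subunit (chr16:15637866-15842235), had 50.7, 51.5, 79.4 and 62.97 CPM in EμMyc, 57.04, 73.4 and 91.2 in EμMyc/Casp2-/-, 25.5, 21.4, 22.2 and 21.6 in Th-MycN and 18.1, 22.7, 16.2 and 16.9 in Th-MycN/Casp2-/- tumors. The tumor types did not overlap, and the lymphoma means were 61.2 ± 13.4 and 73.9 ± 17.1 CPM (SD, n = 4 and 3) against 22.7 ± 1.89 and 18.5 ± 2.94 in neuroblastomas (n = 4 each). It differed by log2 fold changes of 1.43 (SE 0.20, adjusted p = 2.11e-05) and 1.997 (SE 0.22, adjusted p = 1.61e-06). Xrcc5, which encodes Ku80, had 75.8, 87.9, 139 and 75.3 CPM in EμMyc, 71.9, 113 and 125 in EμMyc/Casp2-/-, 78.2, 45.03, 36.01 and 56.6 in Th-MycN and 28.7, 35.1, 32.98 and 28.3 in Th-MycN/Casp2-/- tumors. Among Casp2 wild type tumors MYCN175 reached the lymphoma range, among Casp2-/- tumors the groups did not overlap, and the log2 fold changes were 0.81 (SE 0.26, adjusted p = 0.0142), which was 0.57 (adjusted p = 0.0629) without EuMyc829, and 1.73 (SE 0.28, adjusted p = 8.97e-05). Lig4, the ligase of the pathway (chr8:9969049-9977686), had 27.5, 59.1, 65.7 and 60.6 CPM in EμMyc, 22.3, 27.9 and 96.4 in EμMyc/Casp2-/-, 17.9, 17.1, 15.2 and 16.5 in Th-MycN and 16.1, 16.9, 13.5 and 12.8 in Th-MycN/Casp2-/- tumors. Neuroblastomas were uniform and lymphomas spread 4.33-fold from lowest to highest, all above the neuroblastomas, which gave 1.67 (SE 0.38, adjusted p = 0.00167) and 1.72 (SE 0.41, adjusted p = 0.0022). The second value was 0.75 (adjusted p = 0.0463) without EuMycC2ko245, the tumor at 96.4 CPM. Xrcc4, the partner that holds Lig4, was at 6.86 to 12.1 CPM in lymphomas and 7.71 to 12.2 in neuroblastomas and was called in neither, with -0.15 (adjusted p = 0.657) and -0.30 (adjusted p = 0.404). The 5 end joining genes were thus not all higher.

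**Figure D3:**
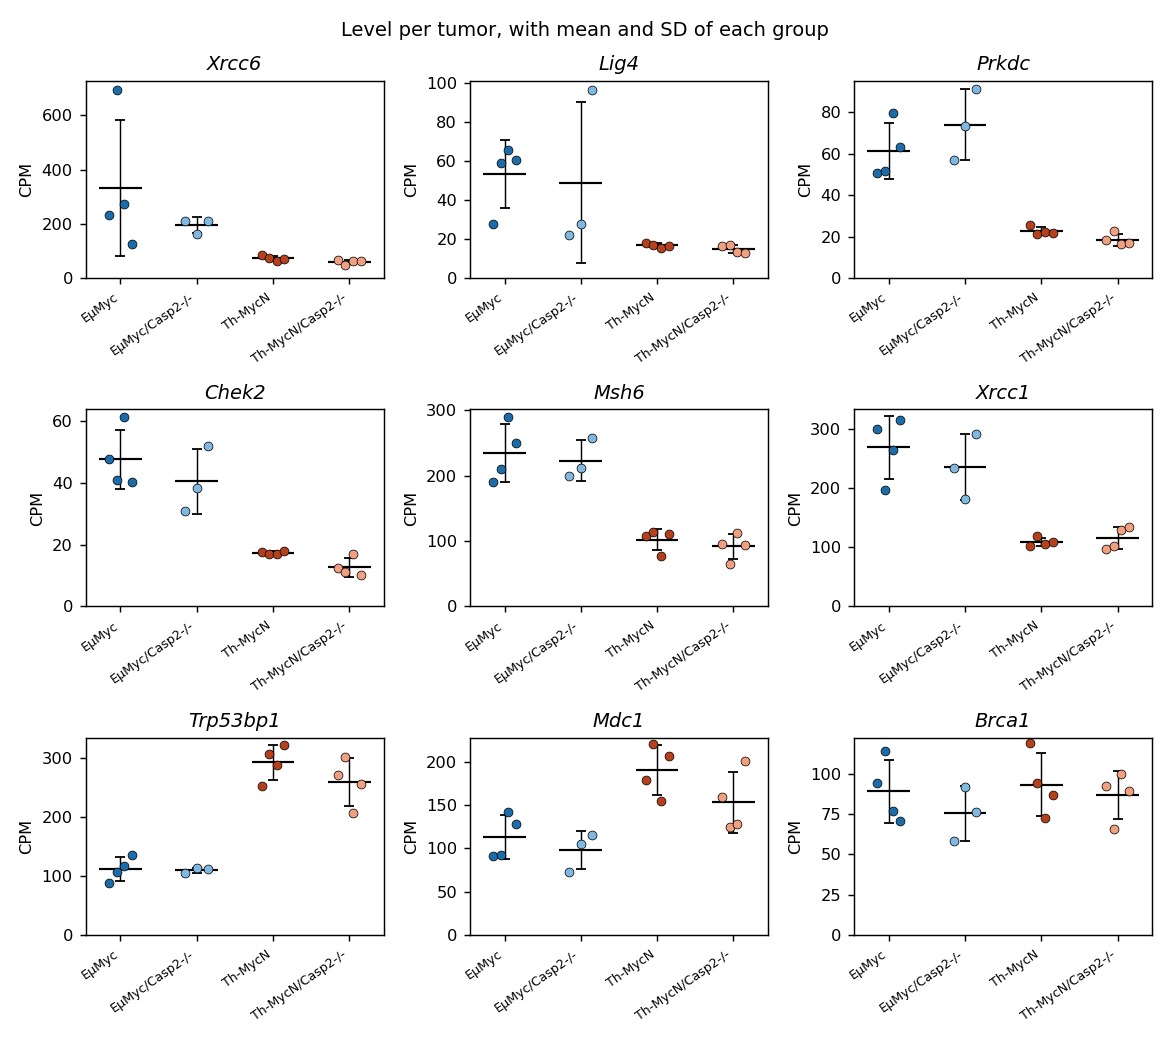
Each panel is 1 gene, with a point for each tumor, the mean and SD of each of the 4 groups, and CPM from 0 on the vertical axis. Chek2, Prkdc and Xrcc6 show lymphomas above neuroblastomas, the single high Xrcc6 point at 694 CPM is EuMyc743b, and Trp53bp1 shows the opposite order.

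In mismatch repair, Msh6 (chr17:87975062-87990892), a subunit of the complex that recognises base mismatches, had 189.7, 209.6, 290.0 and 249.6 CPM in EμMyc, 199, 212 and 258 in EμMyc/Casp2-/-, 108, 113, 77.7 and 110.2 in Th-MycN and 95.2, 65.3, 113 and 94.1 in Th-MycN/Casp2-/- tumors. The tumor types did not overlap, and Msh6 differed by log2 fold changes of 1.198 (SE 0.19, adjusted p = 7.63e-05) and 1.28 (SE 0.21, adjusted p = 8.12e-05). Pms2, the endonuclease subunit, was higher by log2 fold changes of 0.52 (adjusted p = 0.0367) and 0.73 (adjusted p = 0.009), calls that were lost without any 1 of 6 tumors in the first comparison (all but EuMyc614 and EuMyc743b, 0.42 to 0.56) and without EuMycC2ko245 in the second (0.52, adjusted p = 0.0672). Exo1, the exonuclease that removes the mismatched strand, had 82.9, 82.2, 92.8 and 73.4 CPM in EμMyc, 87.5, 80.6 and 112 in EμMyc/Casp2-/-, 122, 69.3, 54.4 and 61.5 in Th-MycN and 53.1, 48.3, 62.3 and 69.8 in Th-MycN/Casp2-/- tumors. Among Casp2 wild type tumors MYCN175 was above all lymphomas and the difference was 0.11 (SE 0.23, adjusted p = 0.695), which was 0.43 (adjusted p = 0.0541) without MYCN175 and -0.0254 (adjusted p = 0.936) without MYCN332, while in Casp2-/- tumors the groups did not overlap and the difference was 0.68 (SE 0.25, adjusted p = 0.0263). The interaction for Exo1 was 0.57 (adjusted p = 0.758), so the comparisons were not shown to differ. The second Exo1 call was lost without EuMycC2ko245 (0.52, adjusted p = 0.123), MYCNC2ko118 (0.63, adjusted p = 0.0633) or MYCNC2ko144 (0.59, adjusted p = 0.0739).

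None of the 3 nucleotide excision genes was higher in lymphoma, beside 27.4% and 26.8% of all tested genes in the 2 comparisons. Ercc1, a subunit of the nuclease that cuts beside a bulky lesion, had 35.3, 28.8, 38.3 and 40.1 CPM in EμMyc, 40.05, 31.4 and 31.2 in EμMyc/Casp2-/-, 36.5, 39.4, 48.9 and 35.1 in Th-MycN and 46.9, 49.2, 49.9 and 63.6 in Th-MycN/Casp2-/- tumors. Its log2 fold change was -0.17 (SE 0.18, adjusted p = 0.444) in Casp2 wild type tumors and -0.62 (SE 0.20, adjusted p = 0.0147) in Casp2-/- tumors, where MYCNC2ko180 was the highest of all and the groups did not overlap. Without MYCNC2ko180 the second value was -0.46 (adjusted p = 0.0650), without EuMycC2ko239 it was -0.49 (adjusted p = 0.0736), and the interaction was -0.45 (adjusted p = 0.758). The damage recognition genes Xpa and Xpc were called in neither comparison, with 0.20 and -0.04 in Casp2 wild type tumors and -0.34 and 0.13 in Casp2-/- tumors.

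Among the genes of base excision and single-strand breaks, Xrcc1, the scaffold of single-strand break repair (chr7:24546289-24573440), had 299, 196, 264 and 315 CPM in EμMyc, 234, 181 and 292 in EμMyc/Casp2-/-, 103, 119, 105 and 109 in Th-MycN and 96.8, 102, 129.8 and 134 in Th-MycN/Casp2-/- tumors. Each lymphoma was above each neuroblastoma, and it differed by log2 fold changes of 1.30 (SE 0.18, adjusted p = 2.26e-05) and 1.03 (SE 0.20, adjusted p = 0.000372). Parp1, which recruits Xrcc1, ranged from 382 to 704 CPM in lymphomas and 301 to 477 in neuroblastomas, with log2 fold changes of 0.74 (adjusted p = 0.00773) and 0.77 (adjusted p = 0.00948), the second 0.61 (adjusted p = 0.0518) without EuMycC2ko239. Ung, the uracil glycosylase, which B cells also use in antibody diversification, had 65.6, 85.3, 96.6 and 57.6 CPM in EμMyc, 92.01, 79.5 and 95.3 in EμMyc/Casp2-/-, 65.4, 74.8, 51.1 and 71.1 in Th-MycN and 40.9, 29.7, 58.4 and 42.3 in Th-MycN/Casp2-/- tumors. Casp2 wild type tumors overlapped at 0.22 (SE 0.22, adjusted p = 0.400), and all EμMyc/Casp2-/- tumors were above the Th-MycN/Casp2-/- tumors at 1.05 (SE 0.23, adjusted p = 0.00118). Ogg1, the glycosylase for oxidised guanine, was at -0.13 and 0.04 and was called in neither.

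Of the Fanconi anemia genes and helicases, 2 of 5 (40%) were higher in both comparisons, beside 27.4% and 26.8% of all tested genes in each. Wrn, a RecQ helicase (chr8:33234384-33385527), had 37.8, 49.7, 39.2 and 49.2 CPM in EμMyc, 25.6, 45.7 and 43.01 in EμMyc/Casp2-/-, 13.7, 16.8, 16.1 and 17.3 in Th-MycN and 17.9, 25.2, 12.9 and 12.2 in Th-MycN/Casp2-/- tumors. The groups did not overlap, although the lowest lymphoma, EuMycC2ko215, and the highest neuroblastoma, MYCNC2ko144, nearly met, and Wrn differed by log2 fold changes of 1.46 (SE 0.25, adjusted p = 0.000172) and 1.16 (SE 0.27, adjusted p = 0.00193). Fanci, a subunit of the complex that is ubiquitinated at crosslinks, ranged from 74.1 to 92.98 CPM in lymphomas and 47.2 to 65.9 in neuroblastomas, with log2 fold changes of 0.61 (adjusted p = 0.00156) and 0.63 (adjusted p = 0.00223). Fanci shares 921 exonic bases with Polg on the other strand, and with reads of either strand its values were 0.30 (adjusted p = 0.192) and 0.31 (adjusted p = 0.226), so its call did not hold there. Its partner Fancd2 was at -0.06 and 0.06, Fanca at 0.29 and 0.32, and the helicase Blm at 0.17 and 0.21, none of them called. Without EuMycC2ko215 the second Blm value was called (0.52, adjusted p = 0.0303), and the second Fancd2 value was 0.33 (adjusted p = 0.271).

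**Figure D4:**
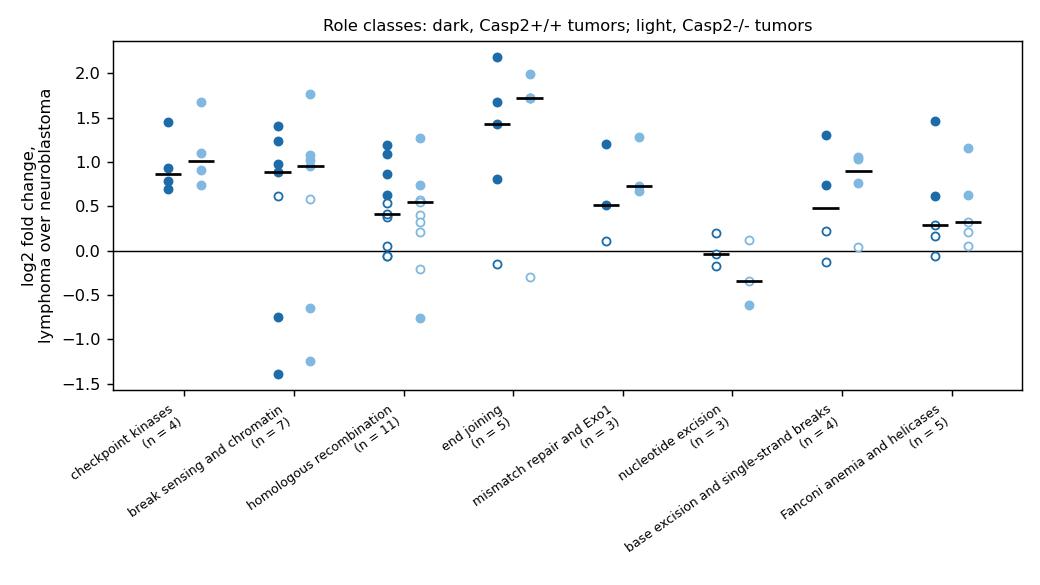
Each point is 1 of the 42 genes in its role class, with the log2 fold change of lymphoma over neuroblastoma on the vertical axis, dark for Casp2 wild type and light for Casp2-/- tumors, filled where the adjusted p was below 0.05, and a black bar at the median. End joining holds the highest values with medians of 1.43 and 1.72, and nucleotide excision lies around 0 with medians of -0.04 and -0.34.

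The promoters of the genes with the largest rise in their class are shown because E2F and Myc family factors are known regulators of S phase genes. These genes were chosen for their rise, so their common direction is not a finding. A RefSeq window of 300 bases (250 before and 50 after the annotated start, GRCm38.p6) was found for 31 of the 42 genes, 35 windows in all, and Rad50 and Wrn had no entry. The E2F letters TTTCCCGC, TTTCGCGC, TTTGCCGC and TTTGGCGC were searched on both strands, and the E-box CACGTG, which reads the same on both. Capitals mark a match.
Chek2 promoter, chr5:110839733-110840032, plus strand: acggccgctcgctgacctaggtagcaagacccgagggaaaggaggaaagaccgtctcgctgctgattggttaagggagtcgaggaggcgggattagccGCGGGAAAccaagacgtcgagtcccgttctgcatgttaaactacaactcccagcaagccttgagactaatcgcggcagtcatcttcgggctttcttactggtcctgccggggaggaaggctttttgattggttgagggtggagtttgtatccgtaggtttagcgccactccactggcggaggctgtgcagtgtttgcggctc
Xrcc6 promoter, chr15:82016119-82016418, plus strand: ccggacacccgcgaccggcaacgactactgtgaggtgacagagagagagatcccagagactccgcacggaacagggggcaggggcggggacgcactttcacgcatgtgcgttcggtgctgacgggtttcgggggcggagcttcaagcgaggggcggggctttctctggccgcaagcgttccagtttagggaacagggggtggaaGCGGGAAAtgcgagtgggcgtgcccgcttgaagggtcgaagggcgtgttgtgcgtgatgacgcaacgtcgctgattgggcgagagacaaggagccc
Msh6 promoter, chr17:87974800-87975099, plus strand: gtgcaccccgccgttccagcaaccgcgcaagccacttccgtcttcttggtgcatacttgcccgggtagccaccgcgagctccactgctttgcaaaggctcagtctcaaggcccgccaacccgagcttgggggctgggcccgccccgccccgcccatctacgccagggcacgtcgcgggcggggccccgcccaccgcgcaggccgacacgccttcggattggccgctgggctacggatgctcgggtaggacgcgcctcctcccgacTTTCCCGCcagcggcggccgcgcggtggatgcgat
Rad51b promoter, chr12:79297032-79297331, plus strand: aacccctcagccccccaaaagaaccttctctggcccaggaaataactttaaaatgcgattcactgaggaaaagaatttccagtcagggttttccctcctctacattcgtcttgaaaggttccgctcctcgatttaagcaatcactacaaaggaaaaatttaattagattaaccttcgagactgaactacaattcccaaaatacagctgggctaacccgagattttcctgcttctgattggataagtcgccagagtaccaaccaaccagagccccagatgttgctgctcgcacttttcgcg
Xrcc1 promoter, chr7:24546449-24546748, plus strand: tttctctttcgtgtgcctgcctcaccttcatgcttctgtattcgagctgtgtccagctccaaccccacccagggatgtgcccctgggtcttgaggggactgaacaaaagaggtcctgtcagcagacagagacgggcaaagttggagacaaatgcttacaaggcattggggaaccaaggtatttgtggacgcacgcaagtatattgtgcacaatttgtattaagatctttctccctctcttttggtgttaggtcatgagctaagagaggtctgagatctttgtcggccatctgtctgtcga
Chek2 and Xrcc6 held GCGGGAAA, the reverse complement of the first form, at 152 and 46 bases before the start, and Msh6 held TTTCCCGC at 15 bases after it. The windows of Rad51b and Xrcc1 held none of these letters. An E2F form was found in 8 of the 35 windows (22.9%), beside 2.26% of 32851 windows of the same length over all genes, and the E-box in 2, those of Xrcc5 and Parp1 (5.71% beside 7.15%). Within the 42 genes the E2F letters were in 3 of 18 windows of genes higher in EμMyc (16.7%) and in 5 of 17 of the other genes (29.4%), the latter being the promoters of Brca2, Bard1 and Mdc1 and both windows of Rad51c, counts that are small and were not tested against each other. A match describes the letters and not a bound factor.

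The comparison of Casp2-/- with Casp2 wild type tumors within a type asked what the loss of caspase-2 did to these genes, and none of the 42 passed the test. In neuroblastoma 0 were higher (0.00672% of all tested genes) and 0 lower (0.0269%), also by edgeR's likelihood ratio test and by DESeq2, and 5 had an unadjusted p below 0.05 (6.77% of all genes). In lymphoma 0 were higher (0.0941%) and 0 lower (0.047%), again by all 3 tests, and 0 had an unadjusted p below 0.05 (8.53%). Over all 14880 genes the likelihood ratio test called 133 in neuroblastoma and 223 in lymphoma, and DESeq2 called 141 and 218. With shares this small, 0 of 42 says little about these genes in particular. Casp2 itself, read over its whole gene, did not pass the quasi-likelihood test either. Its log2 fold changes were -0.79 (adjusted p = 0.327) in neuroblastoma and -1.35 (adjusted p = 0.0536) in lymphoma. The study reports a significant fall of Casp2 in its own lymphoma comparison. It also reports that genotyping and immunoblotting showed the deletion in all tumor samples. The interaction of genotype and tumor type called 0 higher (0.0336%) and 0 lower (0.0202%) among the 42, with 3 at an unadjusted p below 0.05 (7.57%).

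In neuroblastoma the smallest unadjusted p belonged to Xrcc5, whose values are given above. All 4 Th-MycN/Casp2-/- tumors (28.3 to 35.1 CPM) were below all 4 Th-MycN tumors (36.0 to 78.2 CPM). Its log2 fold change was -0.79 (SE 0.26, 95% interval -1.34 to -0.23, adjusted p = 0.449). Pms2 was the other of the 2 genes whose groups did not overlap, both below (3.68% of all genes, and 2.94% above), at 28.5 to 31.7 against 36.1 to 44.8 CPM and -0.45 (adjusted p = 0.694). Ung at -0.62 (adjusted p = 0.495) and Mre11a at -0.36 (adjusted p = 0.666) were the others on the lower side. The smallest unadjusted p on the higher side was that of Ercc1, at 46.9 to 63.6 against 35.1 to 48.9 CPM, with 0.39 (SE 0.18, adjusted p = 0.733).

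In lymphoma the smallest unadjusted p was that of Xrcc6, with -0.77 (SE 0.39, adjusted p = 0.627), a value that was -0.11 (adjusted p = 0.942) without EuMyc743b. Rad51c was the 1 gene whose groups did not overlap, at 6.25 to 7.17 CPM in Casp2-/- against 8.03 to 10.8 in Casp2 wild type lymphomas (1.96% of all genes below, 1.75% above), with -0.43 (adjusted p = 0.700). Prkdc had the smallest p on the higher side, with 0.27 (SE 0.21, adjusted p = 0.780). Tumor onset did not overlap between these groups of mice, so genotype and age at onset cannot be told apart for the lymphomas.

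The checkpoint kinases had values below 0 in both tumor types without passing the test. In neuroblastoma Atm was at -0.24, Atr at -0.30, Chek1 at -0.39 and Chek2 at -0.46, and in lymphoma they were at -0.12, -0.13, -0.35 and -0.23. The interval of Chek2 ran from -0.93 to 0.02 in neuroblastoma and from -0.74 to 0.28 in lymphoma, which leaves room for a fall of nearly 2-fold as well as for a small rise. Over the 42 genes, 32 had a value below 0 in neuroblastoma, where 50.3% of all genes did, and 32 in lymphoma, where 52.7% did, with medians of -0.16 and -0.12. Both counts rested in part on single tumors. Without EuMycC2ko215 the lymphoma count was 21 of 42 with a median of 0.00021, and without MYCN175, which had the highest neuroblastoma level in 19 of the 42 genes (13.5% of all genes), the neuroblastoma count was 27 with a median of -0.08. Of the 15 cycle genes 11 and 12 were below 0, and of 102 further repair genes 52 and 59.

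**Figure D5:**
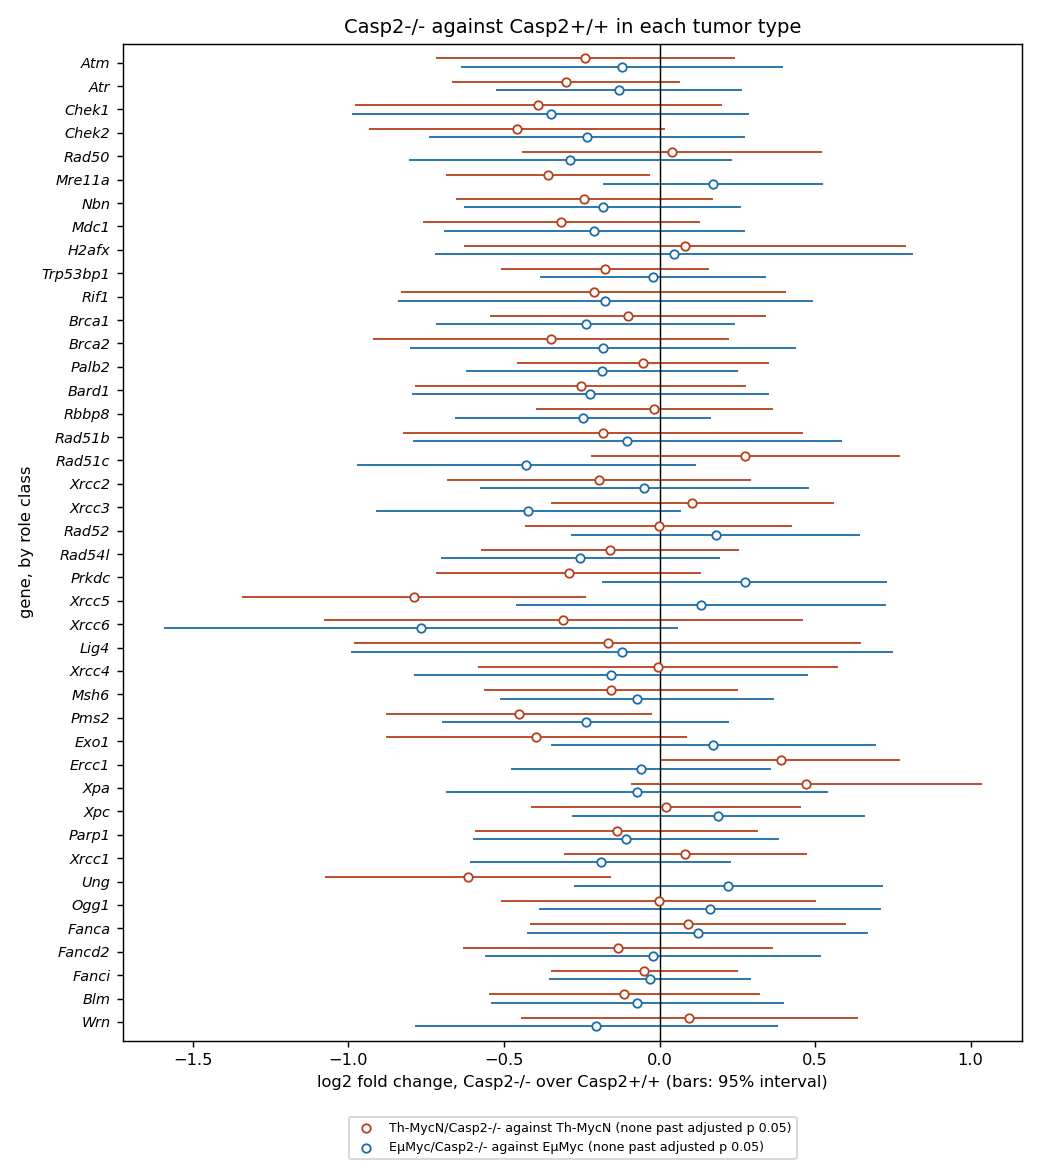
Each row is 1 of the 42 genes, with the log2 fold change of Casp2-/- over Casp2 wild type tumors and its 95% interval on the horizontal axis, red for neuroblastoma and blue for lymphoma. No gene passed an adjusted p of 0.05 in either, and the red points of Xrcc5 and Ung and the blue point of Xrcc6 lie furthest to the left.

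The interaction was largest for Xrcc5, at 0.92 (SE 0.38, adjusted p = 0.605), followed by Ung at 0.84 (SE 0.32, adjusted p = 0.556). For Xrcc5 the genotype difference was -0.79 in neuroblastoma and 0.13 in lymphoma, and for Ung it was -0.62 and 0.22. Mre11a, the third gene with an unadjusted p below 0.05, had -0.36 and 0.17 and an interaction of 0.53 (adjusted p = 0.622). None passed the correction over all genes, so these differences in direction were not shown to hold.

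Genes varied among tumors of a type to different degrees. The coefficient of variation over the 7 lymphomas had a median of 20.3% across the 42 genes and over the 8 neuroblastomas 18.1%, and it was larger in lymphoma for 23 of the 42, beside 73.6% of all tested genes. Xrcc6 varied most among lymphomas at 70.5%, with a ratio of 5.59 from lowest to highest tumor, followed by Lig4 at 52.4%. Relative to the other lymphomas, long transcripts were lower and short ones higher in EuMycC2ko215, by medians over all genes with a known length. In that tumor the median deviation from the other lymphomas of the 2937 genes with the longest exons, minus that of the 2937 with the shortest, was -0.50 on the log2 scale, beside -0.31 to 0.23 in the other 14 tumors, and the median deviation of the 42 genes was -0.41. The longest genes were those from 7.53 kb of exon. Of genes low in that tumor, Atm had 10.3 kb, Rif1 10.5 kb and Wrn 7.60 kb, while Rad50 had 5.38 kb and was not among the longest. The part of transcript length in these low values was not tested.

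A wider list of 104 genes of the same pathways, of which 102 were tested, was read beside the 42. Between EμMyc and Th-MycN tumors 44 of the 102 were higher in lymphoma (43.1%, beside 27.4% of all tested genes) and 5 lower (4.90%, beside 32.9%), with a median of 0.43. Between the Casp2-/- tumors 38 were higher (37.3%, beside 26.8%) and 6 lower (5.88%, beside 31.4%), with a median of 0.38. By the fixed rule of the 5 largest called differences in each direction, those higher were Mgmt, which removes alkyl groups from guanine, at 2.72, the bypass polymerase Polh at 2.10, Fam175a, a partner of Brca1, at 2.07, Parp3 at 1.94 and Polm, an end joining polymerase, at 1.92. Those lower were the glycosylase Neil2 at -1.97, Mad2l2, which acts downstream of 53BP1, at -1.87, the nuclease Fan1 at -1.63, the excision nuclease Ercc5 at -1.497 and Aptx, which repairs abortive ligation ends, at -1.14. For Neil2 (SE 0.58) and Polm (SE 0.47) the EμMyc and Th-MycN tumors overlapped. Neil2 had only 379 reads over all 15 libraries. Mad2l2 and Trp53bp1, which act on the same ends, were both lower in lymphoma, and Rif1 was higher. Between genotypes none of the 102 was called by edgeR's quasi-likelihood or likelihood ratio test in either tumor type, with 2 at an unadjusted p below 0.05 in neuroblastoma (6.77% of all genes) and 0 in lymphoma (8.53%). DESeq2 called 1, Fancg of the Fanconi anemia core complex, higher in Th-MycN/Casp2-/- than in Th-MycN tumors (adjusted p = 0.0231), with a log2 fold change of 0.69 by the quasi-likelihood test (adjusted p = 0.261). It is named because it is the single gene so called, after its values were seen.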

How the data were processed

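Poly(A) RNA of 15 tumors was sequenced by the authors on an Illumina HiSeq (single-end reads of 50 bases), checked with FastQC and aligned with STAR to mm10/GRCm38; versions are not given in the sources used here. The deposited files hold STAR's raw gene counts per library, not normalized. As in the study's methods, the second-strand counts were used, although they held 48.8 to 49.3% of the reads of both strands, so that genes overlapping on opposite strands share reads. Rows of unmapped (2.26 to 11.2%), multimapping (15.0 to 24.2%), ambiguous and unassigned reads stayed out of library sizes.

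Genes with over 1 CPM in at least 3 libraries (14880) were fitted in edgeR 4.0.16 (R 4.3.3, limma 3.58.1) with TMM scaling and 1 mean per group, and tested by the quasi-likelihood test with Benjamini-Hochberg adjustment. The likelihood ratio test and DESeq2 1.42.0 were alternatives. The script was tested on simulated data. Genes were placed by GENCODE M21. The 42 genes, the other lists and the rules for named genes (the called gene with the largest change in each class and direction, genes called in 1 comparison of tumor types, the smallest p per genotype comparison and direction, and 7 central genes) were chosen with earlier results of these data known. The sex of the mice came from the study's sample sheet. No pair of libraries agreed within sampling noise (chi-square per degree of freedom at least 16.8).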

Additional observations from a re-analysis of the deposited data

Results flagged for a closer look

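In 126 groups of 4 tumors (each of the 42 genes in the 3 groups of that size), a single tumor was set apart from the others by Dixon's gap test in 6, and chance alone sets apart about 1 in 20. Brca2 was at 24.8 CPM in EuMyc835, and the nearest EμMyc tumor was at 61.3. Msh6 was at 77.7 CPM in MYCN332, with the nearest Th-MycN tumor at 108. MYCN175 was the high tumor of the Th-MycN group for Parp1 at 477 CPM (nearest 320.4), Ogg1 at 30.6 CPM (nearest 17.7) and Xpc at 63.0 CPM (nearest 43.2). Xpc was also low in MYCNC2ko176 among Th-MycN/Casp2-/- tumors, at 36.4 CPM, with the nearest at 51.9.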

How the results depend on the processing

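No paired analysis was possible because the labels give each tumor a mouse number of its own and no number shared between groups. Of 701 values recomputed under other tests, scalings, filters, strand counting or samples for 44 results, 670 were scored as unchanged. For a fold change this meant the same direction and side of the threshold. Other results were counts of called genes, which have neither, and a shift such as 24 to 19 was scored as unchanged. They included the genotype and interaction counts, which never changed, so 670 does not measure how often calls held. The number of genes higher in lymphoma was 19 to 22 with each tumor left out in turn and 20 to 24 otherwise for Casp2 wild type tumors, and 19 to 27 and 21 to 27 for Casp2-/- tumors. The number lower in the Casp2-/- tumors was 1 to 4 with each tumor left out (2 without EuMycC2ko215, 1 without EuMycC2ko239, 2 without MYCNC2ko180), and that higher by over 2-fold was 9 without EuMycC2ko245. No member was called between genotypes or in the interaction under any alternative run. Every alternative counted for the tumor types kept 20 of the 24 calls in Casp2 wild type tumors (not Chek1, Xrcc5, Pms2 and Fanci). In Casp2-/- tumors 17 of the 28 calls were kept. The model with sex as a term was left out of these ranges and counts for the tumor types. Which of the calls hold with sex in the model was therefore not counted.

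Brca1 and Brca2, which were not called, changed sign between EμMyc and Th-MycN: Brca1 was -0.20 to 0.0795 with each tumor left out, and Brca2 was -0.0638 to 0.29, -0.0076 with DESeq2 and -0.0078 with RLE size factors. Chek1 was 0.64 with RLE size factors (adjusted p = 0.0530) and 0.70 without a filter (adjusted p = 0.0534). The cause of these changes was not tested. Depth limits the low genes most: Rad51c had 6.3 CPM in the shallowest library, where 3 reads are 0.607 CPM.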
